A study of Homo sapiens with 18 samples.

Results

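ADGRF5 and 9 further adhesion G protein-coupled receptors were followed across 18 RNA-seq libraries of the triple negative breast cancer line MDA-MB-231. The 10 receptors are ADGRF5, ADGRF1, ADGRF4, ADGRG1, ADGRG6, ADGRE5, ADGRL1, ADGRL2, ADGRA2 and ADGRA3. They were taken from 57448 genes of the deposited count matrix by their Ensembl identifiers, and 33 human genes of the adhesion class were listed in all. The group was chosen by the fall of ADGRF5 RNA in the GPS2 knockout pools against WT, so every knockout against WT value of these 10 genes is given as a description without a test. All 10 had a row in the matrix, and 8 passed the filter on low counts, which ADGRF1 and ADGRF4 did not.

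Parental cells without modification (WT), cells with GPS2 knockout by sgRNA set 1 (KO1) or sgRNA set 2 (KO2), and cells that express myristoylated AKT (myrAKT) were left untreated, and KO1 and KO2 cells were also treated with 10 µM MK2206 for 4 h (KO1+MK and KO2+MK). Each group held 3 libraries. All cells were kept in DMEM with serum, and neither WT nor myrAKT cells received the drug. GPS2 is a regulatory protein of transcription cofactor complexes and of ubiquitin signalling, myristoylated AKT is a membrane-bound, constantly active form of the kinase AKT1, and MK2206 is an allosteric AKT inhibitor. The knockout lines came from lentiviral delivery of Cas9 with sgRNAs and are pools of edited cells, not clones, while AKT1 was delivered by a retroviral vector. No vector-transduced control and no vehicle-treated control is described in the sources used here, so delivery cannot be told apart from genotype, nor handling from the drug.

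Adhesion receptors are built from a long extracellular part and a membrane-spanning part that are joined by a GAIN domain, in which many members cut themselves at a short motif called the GPS (a name unrelated to the gene GPS2). The sequence behind the cut can act as a tethered agonist, and the extracellular parts bind matrix proteins or proteins of neighbouring cells, so the class is known for sensing adhesion and mechanical force. ADGRF5 (GPR116) is best known from lung alveolar type II cells, where it limits the surfactant pool, and from endothelium, and it has also been studied in breast cancer cell migration.

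ADGRF5 (ENSG00000069122) is read from the minus strand of hg38 chromosome 6, from 46852522 to 46954943 in GENCODE release 44. The first 250 bases before each annotated start are shown for ADGRF5 and for the start of ADGRG1 that holds motif matches, since of the 8 receptors tested these had the lowest and the highest log2 fold change between myrAKT and WT. The sequences are from RefSeq on GRCh38.p14 and run 5′ to 3′ in the direction of the gene. Capitals mark a forkhead core (TAAACA) or an AP-1 site (TGANTCA), searched on both strands.
ADGRF5 start 1, chr6:46954940-46955189, minus strand: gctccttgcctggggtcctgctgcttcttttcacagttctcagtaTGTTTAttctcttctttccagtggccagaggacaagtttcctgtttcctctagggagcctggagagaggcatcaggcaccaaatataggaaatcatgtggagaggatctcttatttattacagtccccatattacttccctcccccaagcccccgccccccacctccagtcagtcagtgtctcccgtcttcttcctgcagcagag
ADGRF5 start 2, chr6:46921939-46922188, minus strand: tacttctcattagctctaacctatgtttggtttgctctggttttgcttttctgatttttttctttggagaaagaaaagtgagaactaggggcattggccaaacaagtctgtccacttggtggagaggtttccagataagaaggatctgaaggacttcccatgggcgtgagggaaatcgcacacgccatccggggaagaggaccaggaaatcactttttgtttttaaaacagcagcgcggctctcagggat
ADGRG1 start 3, chr16:57628380-57628629, plus strand: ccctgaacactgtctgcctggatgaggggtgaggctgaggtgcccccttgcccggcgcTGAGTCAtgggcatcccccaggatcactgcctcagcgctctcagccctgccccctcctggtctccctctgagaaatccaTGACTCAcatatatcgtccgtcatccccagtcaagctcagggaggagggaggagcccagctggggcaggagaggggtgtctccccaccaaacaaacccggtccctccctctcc

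ADGRF5 start 1 held 1 forkhead core match, which lies on the opposite strand and reads TGTTTA here, and start 2 held none. A forkhead core was present in 11% of 35116 RefSeq windows of the same length, and the longer FoxO consensus GTAAACA, which contains that core, was present in 2.98% of them and in no window matched to the receptors. ADGRG1 start 3 held 2 AP-1 matches, a motif present in 6.57% of all windows, and its other 2 starts held none. The windows of ADGRF5 were poor in CpG, with 2 and 6 CpG dinucleotides against a median of 11, whereas ADGRG6 had 34 and ADGRA3 had 32. This was not particular to ADGRF5, as ADGRF1 had 2, ADGRF4 had 1, the 3 starts of ADGRG1 had 4, 6 and 6, and the 8 starts of ADGRL2 had 1 to 23. Nor were the motif matches, as start 6 of ADGRL2 also held 1 forkhead core and the window of ADGRF4 held 2 AP-1 matches. RefSeq windows were matched for 7 of the 10 receptors, with 17 windows in all. These matches describe the letters of the windows, and no binding was measured.

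Levels are given as TMM-normalized CPM, in which the counts of a gene are scaled to a common number of counted reads with edgeR's correction of library size. ADGRF5 measured 270.9, 286 and 289.7 CPM in the 3 WT libraries. It measured 92.05, 102.4 and 90.58 CPM in KO1 and 37.15, 34.11 and 37.78 CPM in KO2. In myrAKT cells it measured 53.51, 59.09 and 51.26 CPM. All 9 libraries of the modified, untreated cells lay far below the WT libraries, with KO2 the lowest and KO1 the highest of them. After MK2206 the values were 75.65, 88.29 and 83.8 CPM in KO1+MK and 32.22, 29.31 and 29.6 CPM in KO2+MK, so the treated cells lay slightly below their untreated counterparts and not nearer to WT. The counts behind these values ranged from 816 to 10789 per library. In bulk RNA, fewer cells with ADGRF5 and less ADGRF5 RNA per cell cannot be told apart, which applies to every level given here.

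**Figure D1:**
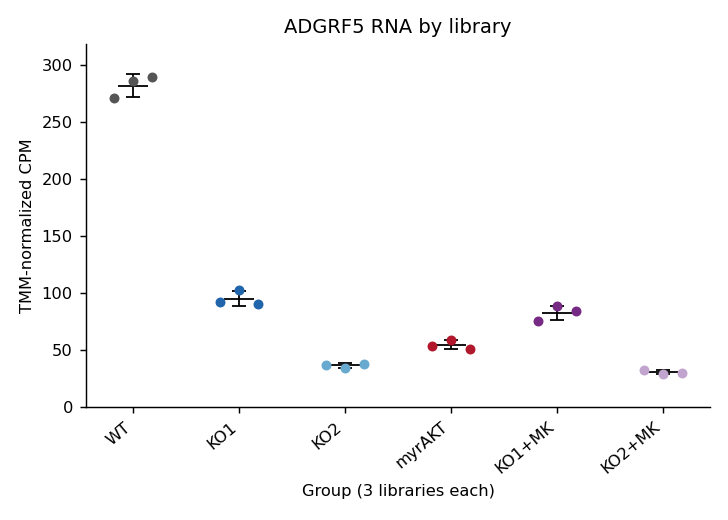
ADGRF5 RNA in TMM-normalized CPM (vertical axis) for each of 18 libraries (points) in 6 groups (horizontal axis), with the group mean and SD (n = 3) in black. The WT libraries sit between 270.9 and 289.7 CPM and no library of another group exceeds 102.4 CPM.

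ADGRF5 averaged 282.2 ± 9.94 CPM in WT, 95.01 ± 6.45 CPM in KO1 and 36.4 ± 1.96 CPM in KO2 (SD, n = 3 each). In the edgeR fit its level was 3.01-fold lower in KO1 (log2 fold change −1.59, standard error 0.0441) and 7.81-fold lower in KO2 (log2 fold change −2.96, standard error 0.0453). With both lines together the log2 fold change was −2.12, and it ranged from −2.29 to −1.98 when single libraries were left out. Only 50 of the 15587 genes tested had a lower log2 fold change. As ADGRF5 was picked for this difference, it is given without a p-value.

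The order of ADGRF5 levels was WT, KO1, KO1+MK (82.6 ± 6.41 CPM), myrAKT (54.6 ± 4.03 CPM), KO2 and KO2+MK (30.4 ± 1.60 CPM). Libraries of neighbouring groups in this order did not overlap, although KO1 and KO1+MK were separated by only a small gap. Per kilobase of exon, ADGRF5 was at 42.7 ± 1.51 CPM in WT and at 5.51 ± 0.297 CPM in KO2 (SD, n = 3).

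The antisense gene ADGRF5-AS1, which lies within ADGRF5 on the opposite strand, held 19 counts over the 3 WT libraries, 7 in KO1, 3 in KO2 and 3 in myrAKT, and none of its exons overlaps an exon of ADGRF5. Among the pseudogenes of ADGRF5 on chromosome 9, ADGRF5P2 held 33 counts in WT, 10 in KO1, 0 in KO2 and 8 in myrAKT. ADGRF5P1 held 32, 43, 24 and 42 counts in the same groups. ADGRF5 held 9260 to 10789 counts in each WT library. Whether reads were exchanged between these copies and ADGRF5 was not tested. The naming rule does not cover these genes, which were added with their values known.

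Depth, labels and cell identity were checked on the same libraries. Between 23419198 and 39319910 reads were counted per library, and the 6 treated libraries were the shallowest. GPS2 RNA was not lower in the knockout pools, at 4.56 ± 0.278 CPM in WT, 4.49 ± 0.0366 CPM in KO1 and 6.02 ± 0.123 CPM in KO2 (SD, n = 3), and counts per gene do not show whether a transcript was edited. The study reported that immunoblot and PCR on genomic DNA bore out the knockdown of GPS2 in these lines, and neither was analysed here. The labels KO1 and KO2 therefore have no check from GPS2 counts, and each direction given for them rests on the library labels. AKT1 was at 230.1 ± 12.1 CPM in myrAKT against 134.5 ± 0.989 CPM in WT (log2 fold change 0.77, edgeR's quasi-likelihood test with Benjamini-Hochberg adjusted p = 4.27e-09). The 5 genes taken as markers of the line (VIM, CD44, EGFR, AXL and MSN) summed to 4981 to 5266 CPM in the untreated libraries and to 4318 to 4847 CPM in the treated ones, all of which lay below the untreated. None was called against WT, but they did not move together in myrAKT, where VIM (0.35) and AXL (0.39) were higher and CD44 (−0.50) and EGFR (−0.51) lower on the log2 scale, with adjusted p between 7.54e-07 and 4.05e-05. The part of these shifts in the receptor results was not tested. CDH1, the epithelial cadherin, and PTPRC, the pan-leukocyte marker, stayed near 0, as did the alveolar surfactant genes SFTPA1, SFTPB and SFTPC with a summed level of at most 0.768 CPM.

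Because ADGRF5 is known from endothelium, the 5 endothelial markers PECAM1, CDH5, VWF, KDR and TEK were examined beside it. They summed to 17.5 to 19.3 CPM in WT, 12.5 to 13.9 CPM in KO1, 12.6 to 14.1 CPM in KO2 and 25.9 to 28.4 CPM in myrAKT. PECAM1 was called higher in myrAKT, from 3.57 ± 0.181 to 21.1 ± 1.29 CPM (SD, n = 3), whereas CDH5 and KDR were called lower there. Among the markers tested, 3 were called lower in KO1 against WT (PECAM1, CDH5 and VWF) and 1 in KO2 (CDH5), beside 9.28% and 11.2% of all genes. In these comparisons 0 were called higher, beside 4.59% and 5.56%. CDH5 and VWF passed the filter in 6 and 4 libraries, with no KO1 library among them, which favours lower values in KO1. For CDH5 no myrAKT library was among them either, so its lower value there was also favoured by the filter. TEK, a defining endothelial receptor, did not pass the filter, was not tested and stayed near 0 in all groups. The part of these markers in the ADGRF5 result was not tested.

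EPCAM, an epithelial adhesion protein, moved in the same direction as ADGRF5. It was at 11.98 ± 0.24 CPM in WT, 9.62 ± 0.703 CPM in KO1, 8.64 ± 0.343 CPM in KO2 and 3.21 ± 0.0527 CPM in myrAKT (SD, n = 3). It was called lower in myrAKT (log2 fold change −1.90, edgeR adjusted p = 7.54e-10), while in the knockout pools it was at −0.41 (adjusted p = 0.000494), below 1.5-fold. The 5 luminal epithelial markers to which it belongs summed to 103 to 107 CPM in WT, 89.2 to 92.7 CPM in KO1, 95.1 to 96.7 CPM in KO2 and 89.1 to 91.9 CPM in myrAKT, most of it from ERBB2, and EPCAM was the 1 of them called there, while PGR and CDH1 stayed near 0 in all groups. The part of EPCAM-expressing cells in the ADGRF5 result was not tested.

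Constantly active AKT was compared with WT to ask which receptors respond to AKT in the same parental line. A gene was called where the adjusted p did not exceed 0.001 (edgeR's quasi-likelihood test, two-sided, adjusted over all 15587 genes tested) and levels differed by 1.5-fold or more. Of the 8 receptors tested, 1 was called higher (ADGRG1) and 2 were called lower (ADGRF5 and ADGRG6), against 4.94% of all genes called higher and 8.83% called lower. This comparison uses the same WT libraries as the knockout comparison, so the values of ADGRF5 in both share their reference.

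ADGRF5 fell 5.19-fold in myrAKT cells (log2 fold change −2.38, standard error 0.0552, adjusted p = 4.79e-13). Its change stayed between −2.44 and −2.34 when single libraries were left out, and 187 of the genes tested had a lower value. ADGRG1 (GPR56), which binds collagen III and transglutaminase 2 and signals through the G12/13 proteins to RHOA, moved the other way. It measured 107.5, 128.1 and 125 CPM in WT and 431.6, 423.1 and 415.8 CPM in myrAKT. The groups were far apart, and the rise was 3.51-fold (log2 fold change 1.81, standard error 0.0611, adjusted p = 1.94e-11), with 139 of the genes tested at a higher value.

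ADGRG6 (GPR126), a receptor for collagen IV and laminin that raises cAMP and is needed for Schwann cells to myelinate, measured 259.5, 227.1 and 246.3 CPM in WT. It measured 117.8, 126.2 and 116.8 CPM in myrAKT, so the groups did not overlap. It fell 2.04-fold (log2 fold change −1.03, standard error 0.0524, adjusted p = 1.31e-09).

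The other 5 receptors did not reach the call. ADGRA3 (GPR125) had a log2 fold change of −0.36 (adjusted p = 5.78e-06) and ADGRL2, a latrophilin, one of −0.30 (adjusted p = 4.47e-05), both past the p threshold but below a fold of 1.5. At the p threshold alone 4 of the 8 receptors were lower in myrAKT, against 17.3% of all genes. ADGRL1 differed by −0.12 on the log2 scale (standard error 0.0496, adjusted p = 0.0558), ADGRE5 by −0.02 (standard error 0.0583, adjusted p = 0.742) and ADGRA2 by −0.14 (standard error 0.14, adjusted p = 0.422). The median log2 fold change of the 8 receptors was −0.22, beside 0.02 for all genes tested.

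**Figure D2:**
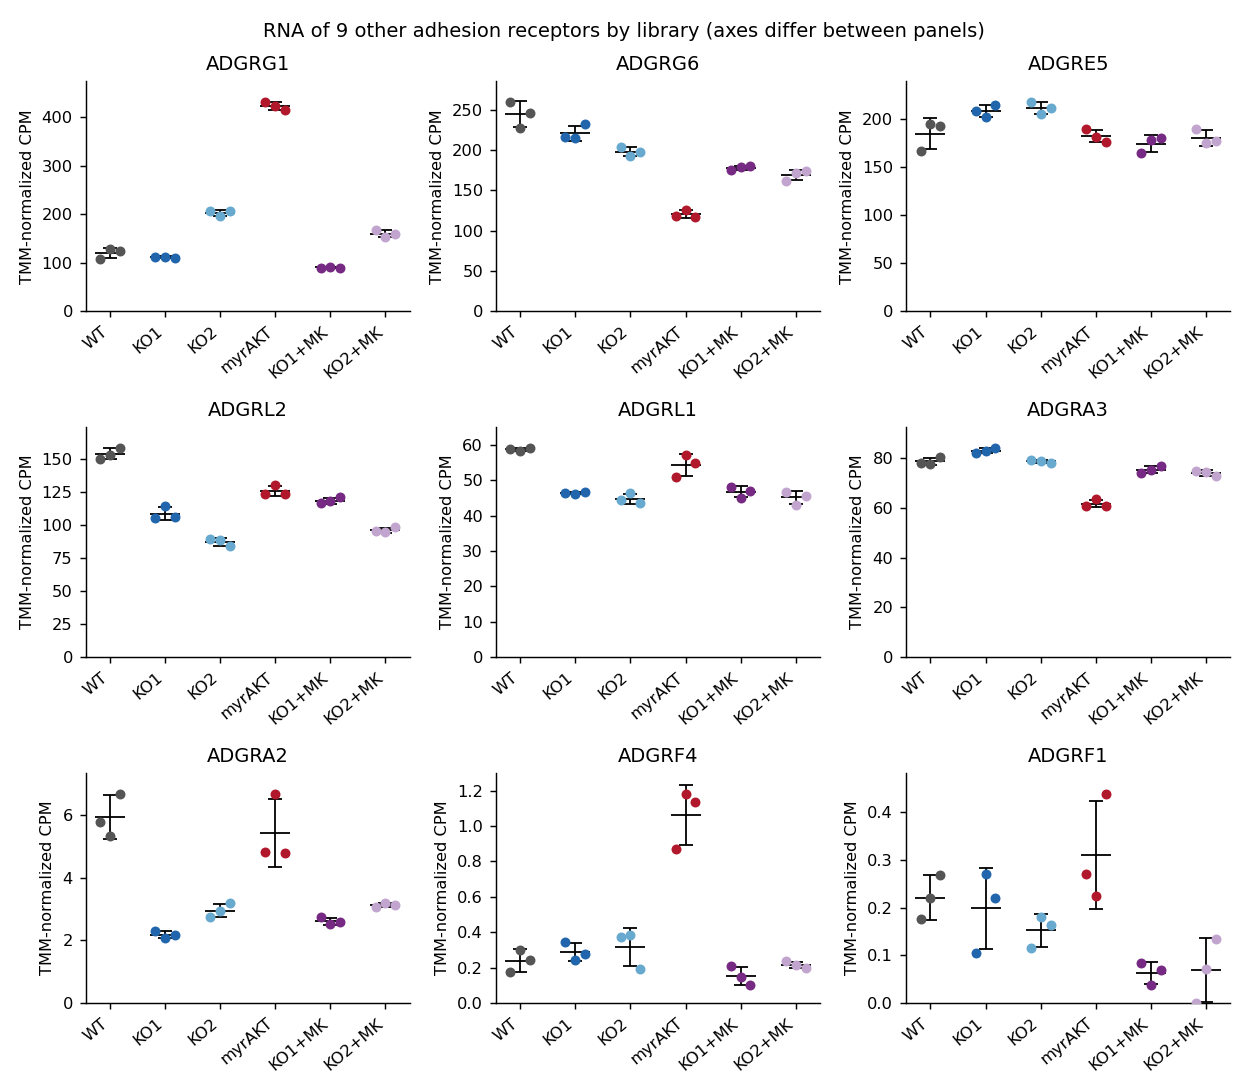
RNA of the 9 other receptors in TMM-normalized CPM (vertical axes, each from 0 and differing between panels) for each library (points) in 6 groups (horizontal axes), with mean and SD (n = 3) in black. ADGRG1 is highest in myrAKT (415.8 to 431.6 CPM) and ADGRG6 is lowest there (116.8 to 126.2 CPM).

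ADGRF4 and ADGRF1, the subfamily members that lie on the same chromosome arm as ADGRF5, were close to the limit of detection. ADGRF4 (GPR115), an epithelial receptor, held 6, 11 and 9 counts in the WT libraries and 29, 37 and 44 counts in the myrAKT libraries. The counts did not overlap, and in a fit without the filter its log2 fold change was 2.08 (standard error 0.339, edgeR adjusted p = 1.26e-08 over 39158 genes). It stayed at 13 counts or fewer in each KO1 library and at 15 or fewer in each KO2 library. ADGRF1 (GPR110), a receptor for the lipid amide synaptamide, held 0 to 17 counts per library in all groups, and its log2 fold change between myrAKT and WT was 0.46 (standard error 0.46, adjusted p = 0.57 in the same fit). A count of 0, which occurred in 1 KO2+MK library, allows up to 3 counts, and this bound covers counting error only.

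In the knockout pools the other receptors are described as follows, again without tests. ADGRA2 (GPR124), which acts with RECK as a coreceptor for WNT7 ligands in brain vessels, was at 5.79, 5.32 and 6.69 CPM in WT. It was at 2.31, 2.08 and 2.15 CPM in KO1 and at 2.74, 2.93 and 3.18 CPM in KO2. Both lines lay below every WT library, and the log2 fold changes were −1.46 and −1.01. In myrAKT cells ADGRA2 was at 4.83, 6.68 and 4.78 CPM, which overlaps WT. Of its exon bases 23% also lie in exons of BRF2 on the opposite strand, and the strand setting of the counting is not given in the sources used here, so reads of BRF2 and ADGRA2 may not be separated. The same holds for 5.57% of the exon bases of ADGRL1, shared with ADGRL1-AS1, and for 4.68% of those of ADGRE5, shared with ENSG00000267379.

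The latrophilins ADGRL1 and ADGRL2, receptors for teneurins and FLRT proteins at cell contacts, were lower in both lines than in WT. ADGRL2 was at 153.7 ± 4.15 CPM in WT, 108.4 ± 4.91 CPM in KO1 and 87.2 ± 2.73 CPM in KO2, which gives log2 fold changes of −0.52 and −0.83. ADGRL1 was at 58.7 ± 0.468 CPM in WT, 46.4 ± 0.284 CPM in KO1 and 44.7 ± 1.41 CPM in KO2 (SD, n = 3), or −0.36 and −0.40 on the log2 scale. Their libraries did not overlap with those of WT.

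ADGRE5 (CD97), a receptor for CD55 on leukocytes and many tumour cells, was slightly higher in the knockout pools than in WT, with log2 fold changes of 0.15 and 0.19, which were 0.08 and 0.11 without WT replicate 1. ADGRA3 differed little, with 0.06 in KO1 and −0.01 in KO2. ADGRG6 was lower by a small amount, with −0.17 in KO1, where libraries overlapped WT, and −0.31 in KO2. ADGRG1 was at 112.1 ± 1.36 CPM in KO1, within the range of WT, and at 203.1 ± 6.37 CPM in KO2 (SD, n = 3), where all libraries were above WT with a log2 fold change of 0.75.

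Counted by the same thresholds as elsewhere, 3 of the 8 receptors were below WT in the joint knockout comparison (ADGRF5, ADGRA2 and ADGRL2) and none was above it, beside 8.59% and 4.07% of all genes called lower and higher. Nothing is read from this count, since the comparison served to choose the group.

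**Figure D3:**
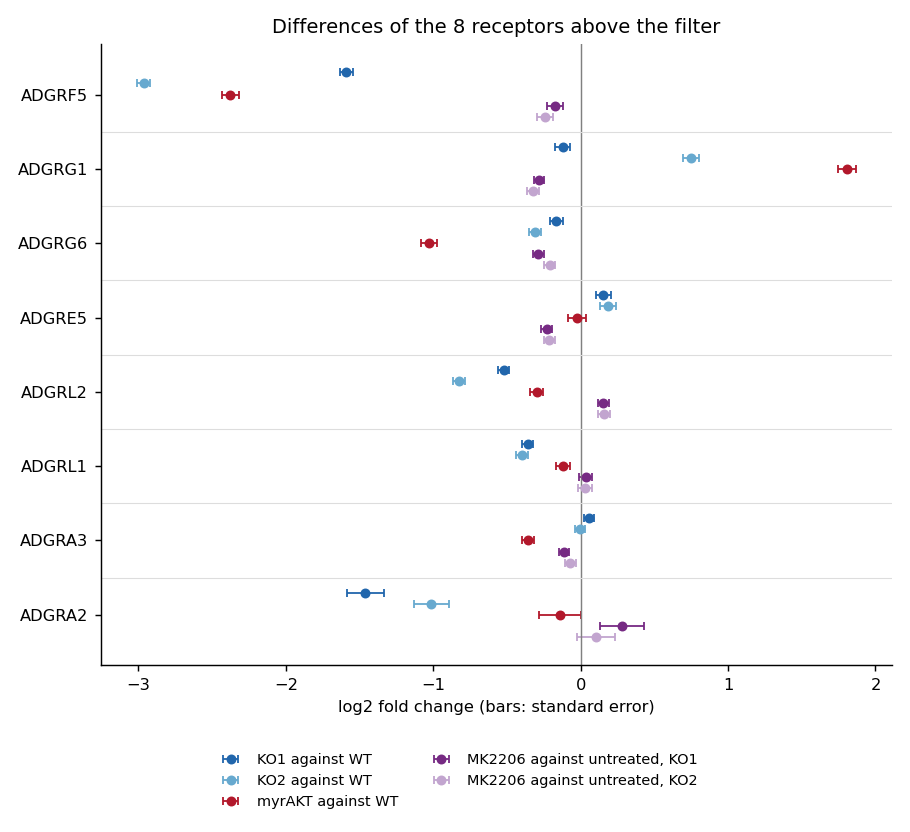
Log2 fold changes (horizontal axis) with standard errors (bars) of the 8 receptors above the filter (vertical axis) in 5 comparisons (colours). ADGRF5 lies at −1.59, −2.96 and −2.38 against WT in KO1, KO2 and myrAKT, and every MK2206 value of the receptors lies between −0.32 and 0.28.

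KO1 and KO2 were compared with each other to see how far the pools differ in these receptors, a contrast the choice of the group did not use directly, although it shares the knockout libraries. ADGRF5 was 2.59-fold higher in KO1 than in KO2 (log2 fold change 1.38, standard error 0.0492, adjusted p = 4.46e-12). ADGRG1 was 1.83-fold lower in KO1 than in KO2 (log2 fold change −0.87, standard error 0.0305, adjusted p = 4.46e-12). These receptors were called in opposite directions, 1 higher and 1 lower of 8, against 1.87% and 0.744% of all genes. Only 104 genes had a larger difference than ADGRF5 in favour of KO1, and 152 had a lower value than ADGRG1.

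ADGRL2 was also higher in KO1 (log2 fold change 0.30, standard error 0.0376, adjusted p = 9.12e-06), but by less than 1.5-fold. The other 5 receptors missed the p threshold, with ADGRG6 at 0.14 (adjusted p = 0.00282), ADGRA2 at −0.45 (adjusted p = 0.0153) and ADGRA3, ADGRL1 and ADGRE5 between −0.03 and 0.07.

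MK2206 was applied to the knockout pools to ask which RNAs respond to AKT inhibition. In the comparison of all 6 treated with all 6 untreated knockout libraries, 0 of the 8 receptors were called by edgeR, against 4.50% of all genes called higher and 2.03% called lower. DESeq2 also called 0, and 3 of the 8 had an unadjusted p under 0.05 with either tool, beside 53.4% of all genes in edgeR. For ADGRF5 the log2 fold change was −0.20 (standard error 0.371, adjusted p = 0.692), and the level of the gene differed between the lines. When single libraries were left out it ranged from −0.38 (without KO1+MK replicate 2) to −0.03 (without KO1 replicate 2), and none of these fits passed the threshold. With the line as a covariate the standard error was 0.0414 (adjusted p = 0.000334), for a change that remained below 1.5-fold. In that fit 5 of the 8 receptors passed the p threshold, 4 lower (ADGRF5, ADGRG1, ADGRG6 and ADGRE5) and 1 higher (ADGRL2), beside 16.7% of all genes lower and 19.7% higher at that threshold, and 0 were called, since none reached 1.5-fold.

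Each line was therefore also tested alone. In KO1, the log2 fold change of ADGRF5 was −0.18 (standard error 0.0539, adjusted p = 0.0173) and in KO2 it was −0.24 (standard error 0.0541, adjusted p = 0.00208). All 3 treated libraries lay below the 3 untreated libraries in each line, but neither value passed the threshold. It was passed in KO1 without the filter on low counts (adjusted p = 0.000123). In KO2 it was passed without that filter (0.000701), with upper-quartile normalization (0.000571) and without KO2+MK replicate 1 (0.000412). Relative to WT, ADGRF5 was 3.41-fold lower in KO1+MK and 9.29-fold lower in KO2+MK, beside 3.01-fold and 7.81-fold in the untreated cells, which share the WT libraries.

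No receptor reached a 1.5-fold change with MK2206 in either line, where 3.30% of all genes were called higher and 1.71% lower in KO1, and 4.90% and 2.16% in KO2. At an unadjusted p under 0.05, 6 of the 8 receptors passed in KO1 and 5 in KO2, with edgeR and with DESeq2, beside 52.6% and 53.4% of all genes in edgeR. At the p threshold alone 3 receptors were lower in each line, ADGRG1, ADGRG6 and ADGRE5, against 8.26% of all genes in KO1 and 8.78% in KO2. ADGRG1 passed in both lines, and ADGRG6 in KO1, whichever library was left out. ADGRE5 missed the p threshold in KO1 without KO1 replicate 1 or 3 (adjusted p up to 0.00305). In KO2 it missed it without KO2 replicate 1 or 3 or KO2+MK replicate 2 or 3 (up to 0.00463), and ADGRG6 without KO2 replicate 1 or 3 or KO2+MK replicate 2 (up to 0.00493).

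ADGRG1 was at 112.8, 113 and 110.6 CPM in KO1 and at 89.67, 92.32 and 89.97 CPM in KO1+MK. In KO2 it was at 207.4, 195.8 and 206.1 CPM, and in KO2+MK at 168.4, 153.6 and 158.5 CPM. Treated libraries were below untreated ones in both lines, with log2 fold changes of −0.28 (standard error 0.032, adjusted p = 1.43e-05) and −0.32 (standard error 0.0389, adjusted p = 9.11e-06). ADGRG1 was higher in myrAKT cells than in WT, and in the knockout pools it was lower under the inhibitor by less than 1.5-fold. These comparisons use different cells, and a link between them through AKT was not tested.

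ADGRG6 had log2 fold changes of −0.29 (adjusted p = 3.98e-05) in KO1 and −0.21 (adjusted p = 0.000395) in KO2, and was lower both in myrAKT cells and under the inhibitor. ADGRE5 had log2 fold changes of −0.23 (adjusted p = 0.000297) and −0.21 (adjusted p = 0.00036). ADGRL2 was the receptor with higher values in all treated libraries of both lines, at 0.15 (adjusted p = 0.00508) and 0.16 (adjusted p = 0.00385), which missed the threshold in each line alone and passed it with both lines and the line as a covariate (0.16, adjusted p = 5.87e-05).

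The MK2206 effect was also compared between the lines. The difference between KO1 and KO2 was 0.06 on the log2 scale for ADGRF5 (standard error 0.0837, adjusted p = 0.886) and lay between −0.08 and 0.18 for the 8 receptors. With edgeR 0 genes were called, which is 0% of those tested, with 1251 genes (8.03%) but 0 receptors at an unadjusted p under 0.05, and DESeq2 called 5 genes and 0 receptors.

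To compare receptors with each other, CPM were divided by the exon length in kilobases and summed over all 33 adhesion receptor genes. ADGRF5 was the highest member of the class in WT, with 26.2 ± 0.183% of the sum (SD, n = 3). ADGRE5 followed with 21.1 ± 1.26%, ADGRG6 with 17.7 ± 1.58% and ADGRG1 with 8.17 ± 0.555%. The share of ADGRF5 was 11.4 ± 0.809% in KO1, 4.43 ± 0.187% in KO2 and 5.73 ± 0.342% in myrAKT, where it ranked 3, 5 and 5. ADGRE5 ranked 1 in both knockout pools, with 30.7 ± 0.815% in KO1 and 31.7 ± 0.408% in KO2. In myrAKT cells ADGRG1 ranked 1 with 32.6 ± 0.791%.

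The summed level itself was 163 ± 4.65 CPM per kilobase in WT, 126 ± 1.29 in KO1, 124 ± 1.97 in KO2 and 144 ± 2.1 in myrAKT (SD, n = 3). A share therefore also moves when another member changes. ADGRE5 itself was at 208.8 ± 6.52 CPM in KO1 and at 185.1 ± 15.8 CPM in WT (SD, n = 3). These shares are descriptions, since they contain ADGRF5.

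**Figure D4:**
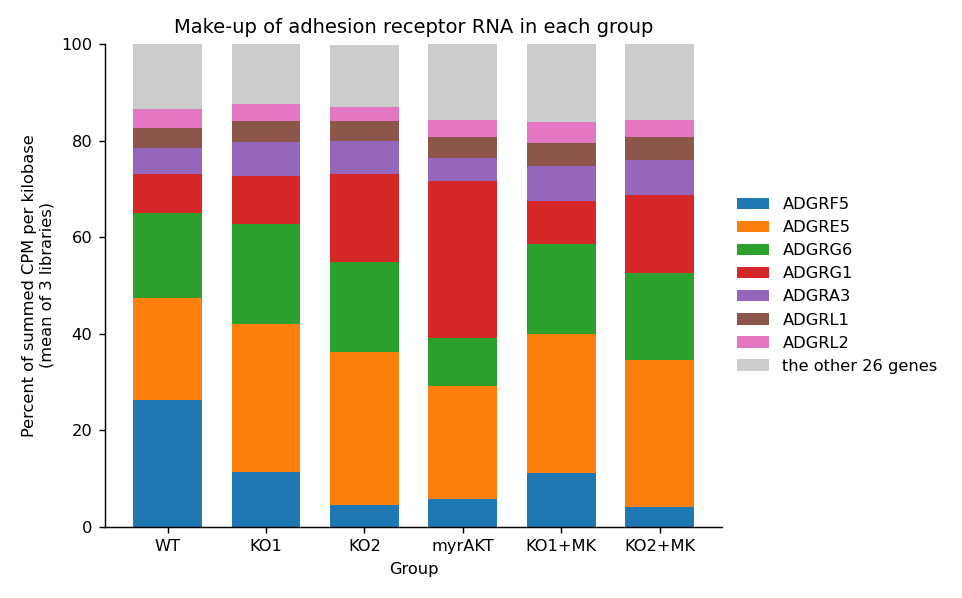
Percent of the summed adhesion receptor RNA, in CPM per kilobase (vertical axis, mean of 3 libraries), held by 7 named receptors and by the other 26 genes (stacked colours) in 6 groups (horizontal axis). ADGRF5 holds 26.2% in WT and 4.43% in KO2, and ADGRG1 holds 32.6% in myrAKT.

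The adhesion receptors outside the 10 were examined by the same thresholds. Of 23 genes, 11 passed the filter, and in the joint knockout comparison 1 was called higher and 2 lower, beside 4.07% and 8.59% of all genes. ADGRG2, a receptor of the epididymis, was higher (log2 fold change 1.12, adjusted p = 0.000147), and the BAI receptors ADGRB2 (−0.67, adjusted p = 1.37e-05) and ADGRB3 (−1.15, adjusted p = 0.00063) were lower. ADGRB3 reached 1 CPM in all WT and myrAKT libraries but in no untreated knockout library, so the filter favoured a lower value in the pools. DESeq2 called the same 3 and also ADGRV1 as higher, at 0.65 (adjusted p = 2.79e-05), where edgeR gave an adjusted p of 0.00242. In myrAKT cells 3 were called higher and 2 lower, beside 4.94% and 8.83% of all genes. ADGRG2 rose by 1.98, ADGRB3 by 1.30 and the very large receptor ADGRV1 by 0.69 on the log2 scale, while ADGRE1 (−2.38) and ADGRD1 (−0.75) fell, with adjusted p between 1.39e-08 and 8.85e-05.

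ADGRG2 was at 1.86 ± 0.173 CPM in WT, 3.43 ± 0.165 CPM in KO1, 4.78 ± 0.253 CPM in KO2 and 7.35 ± 0.482 CPM in myrAKT (SD, n = 3). With MK2206 in both lines CELSR3, an adhesion receptor of the planar polarity cadherins, was the 1 of the 11 called by edgeR, at 0.86 (adjusted p = 7.24e-08), beside 4.50% of all genes called higher, and DESeq2 called 2. CELSR3 and ADGRV1 were the 2 called higher in each line alone. In edgeR's fit of both lines, which had no term for the line, ADGRV1 was at 0.68 and missed the threshold (adjusted p = 0.00348). ADGRE1 and ADGRE2, receptors of myeloid cells, were higher in KO1 than in KO2, by 1.42 (adjusted p = 9.25e-08) and 2.59 (adjusted p = 2.53e-06). ADGRE2 reached 1 CPM in 4 libraries, 3 of KO1 and 1 of KO1+MK, and so passed the filter only through the KO1 line, which favours a higher value there.

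The receptors CELSR1 and ADGRF3 were not called in any of these comparisons. CELSR1 and CELSR2 had log2 fold changes of −0.51 (adjusted p = 2.53e-05) and −0.58 (adjusted p = 2.2e-06) in the joint knockout comparison, below 1.5-fold. In the lines alone CELSR2 was called lower in KO1 (−0.64, adjusted p = 7.74e-09) and not in KO2 (−0.51, adjusted p = 3.24e-07). Of the 11, edgeR called 2 higher and 2 lower in KO1, beside 4.59% and 9.28% of all genes. In KO2 it called 2 higher and 4 lower, beside 5.56% and 11.2%. ADGRE1 was called lower in KO2 (−1.71, adjusted p = 2.95e-08) and not in KO1 (−0.28, adjusted p = 0.014). ADGRV1 was called higher in KO2 (0.88, adjusted p = 1.03e-07) and not in KO1 (0.40). ADGRE2, with the filter limit given above, was called higher in KO1 and lower in KO2.

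**Figure D5:**
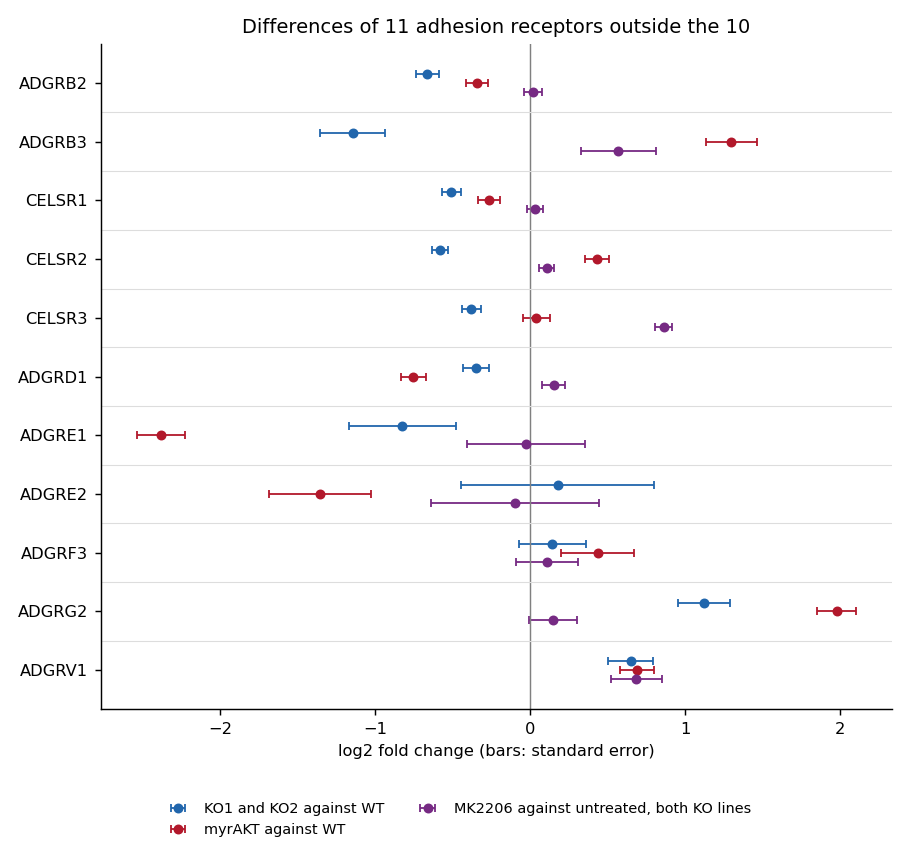
Log2 fold changes (horizontal axis) with standard errors (bars) of 11 adhesion receptors outside the 10 (vertical axis) in 3 comparisons (colours). ADGRG2 lies above 0 in both comparisons with WT (1.12 and 1.98), ADGRE1 is lowest in myrAKT (−2.38), and CELSR3 is at 0.86 with MK2206.

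Genes next to ADGRG1 on chromosome 16 were read as well, since ADGRG5, ADGRG1 and ADGRG3 lie in a row there. ADGRG5 ends 19 kb before ADGRG1 and held 21 counts over the WT libraries and 111 over the myrAKT libraries (log2 fold change 2.39 without the filter, edgeR adjusted p = 2.55e-10). ADGRG3 starts 2.7 kb behind ADGRG1 and held 9 and 59 counts (2.66, adjusted p = 9.59e-07). Both were named with their values known, and whether reads that run past the end of ADGRG1 take part in these counts was not tested.

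Ligands and partners of the 10 receptors were followed in a list of 25 genes, of which 18 passed the filter. In the knockout pools 0 were called higher and 8 lower, beside 4.07% and 8.59% of all genes in edgeR, and DESeq2 gave the same counts, with 0 higher at an unadjusted p under 0.05 with either, where 31.4% of all genes were higher in edgeR. The list had a median of −0.49 on the log2 scale beside −0.00291 for all genes. It was drawn up with earlier results of these data known. It holds integrin and collagen genes, and the study reported integrin and matrix terms among its downregulated genes. The counts and medians of this list, here and in the other comparisons, are therefore descriptions and no independent result about ligands. The largest differences were those of the teneurin TENM4 (−1.71, adjusted p = 1.93e-05), of FNDC4 (−1.11, adjusted p = 0.000127), a secreted factor reported to bind ADGRF5, and of TENM2 (−0.84, adjusted p = 2.01e-05). FNDC4 was at 7.17 ± 0.26 CPM in WT, 4.00 ± 0.524 CPM in KO1, 2.72 ± 0.321 CPM in KO2 and 6.72 ± 0.693 CPM in myrAKT (SD, n = 3). TENM4 reached 1 CPM in 4 libraries, all 3 of WT and 1 of KO2, so it passed the filter almost only through WT and had to be lower elsewhere, and its values against WT are no support for the list. SFTPD, a surfactant protein that binds ADGRF5, stayed near 0 in all groups.

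In myrAKT cells 1 of the 18 was called higher and 6 lower, beside 4.94% and 8.83% of all genes, with a list median of −0.25 beside 0.02 for all genes. TENM4 (−1.76, adjusted p = 2.61e-05), with the limit of the filter just given, WNT7B (−1.51, adjusted p = 2.51e-09), a ligand that signals through ADGRA2, and the neurexin NRXN3 (−1.37, adjusted p = 1.57e-06) fell most. FLRT2, a latrophilin ligand, was the 1 that rose (1.00, adjusted p = 2.62e-09) and was named with its value known. With MK2206 in both lines 0 were called higher (3 at an unadjusted p under 0.05, beside 28.0% of all genes) and 2 fell with edgeR and with DESeq2, beside 2.03% of all genes in edgeR, TENM4 (−1.41, adjusted p = 0.000151) and WNT7B (−0.62, adjusted p = 6.85e-06). TENM4 rests on low levels, from 2.52 ± 0.54 CPM in WT to 0.241 ± 0.0647 CPM in KO2+MK (SD, n = 3). With each line tested alone in edgeR, 0 of the 18 were called lower in KO1 and 2 in KO2, beside 1.71% and 2.16% of all genes.

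Of 16 effectors (G proteins, exchange factors, kinases and arrestins), all passed the filter. In the knockout pools 0 were called by edgeR or DESeq2, where 4.07% of all genes were called higher and 8.59% lower in edgeR. At an unadjusted p under 0.05 in edgeR 3 were higher and 6 lower, beside 31.4% and 32.5% of all genes. With MK2206 in both lines both tools also called 0, and at that unadjusted p 5 were higher and 2 lower, beside 28.0% and 25.3% of all genes. This fit had no term for the line, so differences between KO1 and KO2 add to its error. In each line alone edgeR also called 0, where 3.30% of all genes were called higher and 1.71% lower in KO1, and 4.90% and 2.16% in KO2. In myrAKT cells 1 was called, which was lower, beside 8.83% of all genes, the exchange factor ARHGEF12, which links G12/13 proteins to RHOA. It was at 593.1 ± 7.47 CPM in WT and 302 ± 15.8 CPM in myrAKT (SD, n = 3), a log2 fold change of −0.98 (adjusted p = 1.38e-09).

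The neighbourhood of ADGRF5 was read for the protein-coding genes within 500 kb. MEP1A, PLA2G7 and ANKRD66 held almost no counts in any group, the highest mean of TDRD6 was 0.374 ± 0.205 CPM (SD, n = 3), and ADGRF1 lies 42.8 kb away with the low counts given above. TNFRSF21, a death receptor 277 kb away, was the other abundant gene, at 264.5 ± 9.54 CPM in WT, 232.6 ± 7.5 CPM in KO1, 227.5 ± 1.22 CPM in KO2 and 183.8 ± 4.56 CPM in myrAKT. Its log2 fold change was −0.22 in the knockout pools (adjusted p = 0.000167) and −0.53 in myrAKT (adjusted p = 1.85e-07). It was −0.53 with MK2206 in both lines (adjusted p = 2.89e-08), and none of these reached 1.5-fold.

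CYP39A1, an oxysterol hydroxylase, and SLC25A27, a mitochondrial carrier, were called lower in the knockout pools (−1.40, adjusted p = 1.54e-06, and −1.18, adjusted p = 0.000808). The WT level of SLC25A27 varied, at 6.23, 3.67 and 3.06 CPM. Both genes start 302 kb from the start of ADGRF5, on opposite strands, so they need not be independent of each other. In myrAKT cells, where ADGRF5 fell, they were not lower, at 0.16 (adjusted p = 0.311) and 0.34 (adjusted p = 0.176). With MK2206 in both lines CYP39A1 rose by 0.79 on the log2 scale (adjusted p = 3.05e-05), while SLC25A27 was at 0.69 (adjusted p = 0.00307), which missed the threshold. RCAN2, a regulator of calcineurin, was called lower in KO1 (−1.13, adjusted p = 6.86e-05), at 0.899 ± 0.0808 CPM, where no library reached 1 CPM. In KO2 it was at 1.74 ± 0.155 CPM and −0.17 (adjusted p = 0.395). It was at 1.95 ± 0.294 CPM in WT and 3.05 ± 0.453 CPM in myrAKT (SD, n = 3) and was not called there (adjusted p = 0.00641).

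The genes with the pattern most like ADGRF5 were found by Pearson correlation of log2 CPM over the 18 libraries. The values share the group structure and the WT libraries, and are given as a description. The highest were PLAT, the tissue plasminogen activator (r = 0.990), SDC3, a syndecan (0.989), SEL1L3 (0.988), NAMPTP1, a pseudogene (0.987), and EHBP1L1 (0.987), and the lowest were ATAD2 (−0.983) and CENPN (−0.974), which act in chromatin and at centromeres. PLAT was at 332.8 ± 15 CPM in WT, 167.8 ± 2.07 CPM in KO1, 100.6 ± 6.59 CPM in KO2 and 114.7 ± 8.39 CPM in myrAKT (SD, n = 3), the same order of groups as ADGRF5. Among the other 9 receptors the correlation with ADGRF5 was highest for ADGRL2 (0.861) and lowest for ADGRG1 (−0.444).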

How the data were processed

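RNA from 6 groups of MDA-MB-231 cells, with 3 libraries each, was freed of ribosomal RNA and read as paired ends in 2 sequencing runs. The authors used Trim Galore, HISAT2 on hg38 and featureCounts (with FastQC and MultiQC), and deposited raw counts per Ensembl gene, neither normalized nor filtered. The annotation, the strand setting and the handling of reads shared by genes are not given in the sources used here. Nothing states that replicates were separate cultures, so p-values measure the spread between these libraries, which may be technical. Pairs of replicates had a mean chi-square per gene of 2.27 to 11.6, above counting error.

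Groups came from the sample labels. A gene was tested if 3 or more of the 18 libraries reached 1 CPM (15587 genes). Each comparison was fitted on its own libraries by edgeR 4.0.16 in R 4.3.3 (TMM, quasi-likelihood test with Benjamini-Hochberg adjustment), and calls needed an adjusted p no higher than 0.001 with a 1.5-fold difference. In the main setting the fit of MK2206 in both lines had no term for the line, so stable differences between KO1 and KO2 add to its error. DESeq2 1.42.0, the tool of the study, was an alternative. Log2 CPM used a prior count of 2. The scripts were first tested on simulated counts. GENCODE release 44 gave symbols, positions and exon lengths, and figures were drawn with Python 3.11.15 and matplotlib 3.10.9.

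The members, lists and thresholds were chosen with earlier results of these data known. Named were the 10 receptors, the other adhesion receptors above the filter, the 3 largest called differences of each list in the knockout, myrAKT and MK2206 comparisons, genes within 500 kb of ADGRF5, the 5 most and 2 least correlated genes, and GPS2 and AKT1. Alternatives were other size factors, other filters, DESeq2, a joint fit, the line as a covariate, the replicate number as a block, an adjusted p of 0.05, no minimum fold change and the omission of each library.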

Additional observations from a re-analysis of the deposited data

How the results depend on the processing

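The counts of called receptors and of called pathway genes (ligands, effectors and other adhesion receptors together) were recomputed in 167 alternatives and stayed within 1.5 times their value in 160. The other 7 all came from leaving out the minimum fold change of 1.5. Under it the called receptors went from 3 to 5 in myrAKT against WT, from 0 to 2 with MK2206 in both lines (5 past the p threshold with the line as a covariate, which kept the fold minimum and called 0), and from 0 to 3 in KO1 and from 0 to 3 in KO2. The called pathway genes went from 11 to 22 in the knockout pools, from 13 to 22 in myrAKT and from 3 to 6 with MK2206. The alternative drops a requirement, so its calls include every gene called with it.

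Judged by the call, which needs both the adjusted p and the fold, fold changes of single receptors kept their side, or as descriptions moved by less than the replicate spread, in 1113 of 1136 alternatives, and the other 23 were descriptions against WT that moved by more. Of 776 alternatives with a test, 24 changed side of the p threshold alone, 15 to pass it and 9 to miss it. With MK2206 in both lines these were ADGRF5, ADGRG1 and ADGRL2 (line as a covariate, all 18 libraries in 1 fit) and ADGRA3 (that joint fit, DESeq2), which passed. In the lines alone they were ADGRF5, which passed, and ADGRE5 and ADGRG6, which missed it without single libraries. Between KO1 and KO2 ADGRG6 passed without the filter (adjusted p = 2.2e-06), in DESeq2 (0.000836) and with the replicate block (0.000537). No called value changed sign. In 26 alternatives 9 values that were not called and lay within 0.035 of 0 on the log2 scale changed sign, to at most 0.0381 from 0: ADGRA3 in the knockout pools and in KO2, ADGRE5 in myrAKT and between the lines, ADGRL1 with MK2206 in each line, and the line difference of the MK2206 effect of ADGRE5, ADGRL1 and ADGRL2. The log2 fold change of ADGRF5 in myrAKT stayed between −2.41 and −2.33 over 8 other settings, with a highest adjusted p of 2.14e-11, and that of ADGRG1 between 1.77 and 1.86. With MK2206 in both lines ADGRF5 ranged from −0.38 to −0.03 when single libraries were left out.

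Libraries with the same replicate number did not deviate together between groups (5 of 18 correlations above 0.1, range −0.233 to 0.192), so the numbers were not taken to pair them. With the replicate block, called genes went from 1974 to 1647 in the knockout comparison, from 2146 to 2103 in myrAKT, from 1018 to 896 with MK2206 in both lines and from 408 to 491 between KO1 and KO2. For single lines they went from 2162 to 2083 in KO1 and from 2608 to 2647 in KO2 against WT, and with MK2206 from 781 to 771 in KO1 and from 1100 to 1161 in KO2, and the block changed no call of the receptors by p and fold together. ADGRF1 and ADGRF4 had too few counts for a small difference to be detectable at this depth, and the treated libraries are the shallowest.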
